A study of Brassica juncea with 2 samples.

Results

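Pathogenesis-related proteins, chitinases, beta-1,3-glucanases, thaumatin-like proteins and germin-like proteins were followed in seedlings of B. juncea var. CS52, an Indian mustard variety known for its salt tolerance. Unigenes, the non-redundant transcripts assembled from the reads, were taken where the annotation in the deposited table holds one of the family names, which gave 59 of 47513 unigenes. The CTRL library came from wild type seedlings of about 2 weeks kept in water, and the SS library from seedlings of the same variety and age held for 24 h in 200 mM salinity. Each library was made from pooled tissue of about 10 seedlings grown hydroponically, and the variety was the same in both. Since there is 1 library per condition, differences could not be checked against replicates and no test was made. A smaller share of a tissue cannot be told apart from less RNA per cell.

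The pathogenesis-related (PR) proteins of plants are secreted or vacuolar proteins that accumulate after infection and, in many species, after osmotic stress, ethylene, jasmonate or salicylic acid. Beta-1,3-glucanases and chitinases cut the main polymers of fungal cell walls and also act on plant walls, thaumatin-like proteins and osmotin permeabilise fungal membranes, and PR-1 belongs to the CAP family of small secreted proteins. Germin-like proteins are cupins of the cell wall, some of which make hydrogen peroxide by superoxide dismutase or oxalate oxidase activity.

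By annotation in the deposited table, 5 members were proteins of the CAP superfamily, which includes PR-1. That annotation gives only the superfamily name for them. Of the others, 7 were beta-1,3-glucanases, 16 were chitinases or PR-4, 14 were thaumatin-like proteins or osmotin, and 7 were germins or germin-like proteins. The same words also took unigenes of other kinds, 6 of a pathogenesis related homeodomain protein, a transcription factor, and 4 of proteins related to pollen germination, so that 49 of the 59 carried a name of the 5 protein families. All 59 belonged to the rapa series, the unigenes that match B. rapa, in which most of the annotated unigenes lie (1851 of 26537 annotated unigenes are non-rapa).

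The libraries held 77869180 (CTRL) and 73982305 (SS) reads on unigenes. Levels are given as RPKM, reads corrected for the length of the unigene and for the high-quality reads of the library. Own lengths were used for CTRL and SS alike, since the deposited SS values carry 1 common length for every unigene. Own lengths were found from the CTRL values, and a single length was possible for each of the 59 members. On a unigene of 1000 bp, a single read gives 0.0105 RPKM in the CTRL library and 0.0111 RPKM in the SS library. Ratios are SS over CTRL without a pseudocount, with 95% intervals that cover counting error only and take reads as independent. Log2 ratios carry a pseudocount of 0.1 RPKM, which understates the difference of low unigenes, and were read where a unigene reached 1 RPKM in CTRL or in SS. Leaf markers were abundant. All 48 unigenes named for light harvesting or photosystems reached 1 RPKM, as did 43250 of all 47513 unigenes. Their median level in CTRL was 439 RPKM, against 3.48 RPKM over those 43250. Names particular to roots were sparse. Of 15 unigenes named for root hair, root cap or high affinity nitrate transport, 10 reached 1 RPKM, and 7 of these are named RHD3, RCP1 or RHL1, which act outside roots too. The 3 unigenes of root hair specific 10 had between 1.30 and 3.95 RPKM in CTRL, whereas root hair specific 3 and the 4 nitrate transporter unigenes stayed under 1 RPKM.

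Salinity was accompanied by lower levels of several chitinases, PR-4, a thaumatin-like protein and CAP proteins, while most beta-1,3-glucanases were moderately higher. Of the 55 members with at least 1 RPKM in either library, 10 were at least 2-fold lower and 2 at least 2-fold higher in SS. These are 18.2% and 3.64% of the members, against 4.21% and 1.91% of all 43250 unigenes at this level, and 4.24% and 1.28% of the annotated ones. The remaining 43 members stayed within 2-fold. The median log2 ratio was -0.20 over the members and -0.06 over all unigenes. Counted by interval, the ratio lay wholly below 1 for 26 members (47.3%, against 31.8% of all unigenes) and wholly above 1 for 11 members (20%, against 20.7%). The whole interval was beyond 2-fold lower for 7 members (12.7%, against 1.86%) and beyond 2-fold higher for 1 (1.82%, against 1.1%). The other 4 members stayed under 1 RPKM in both libraries.

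**Figure D1:**
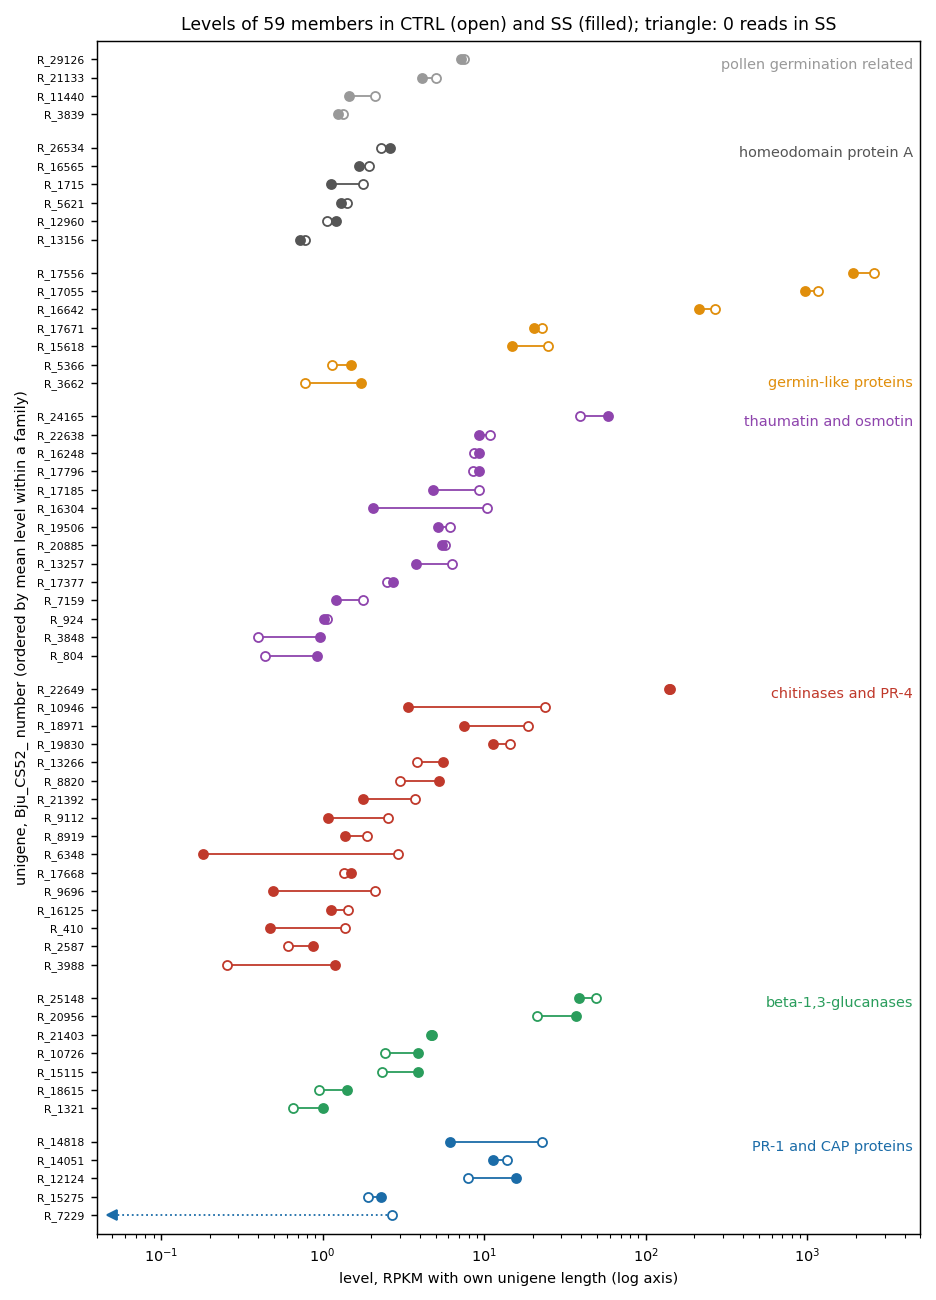
Level of each of the 59 members in CTRL (open circles) and SS (filled circles) as RPKM with own unigene length on a log axis, by family and ordered by mean level; 1 library per condition, no error bars. The germin-like proteins reach 2595 RPKM in CTRL, most other members lie under 10 RPKM, and the triangle marks the CAP unigene with 0 reads in SS.

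The 5 CAP unigenes, the family of PR-1, went different ways. Bju_CS52_R_7229 had 117 reads (2.71 RPKM) in CTRL and 0 reads in SS. With a floor of 3 reads in the SS library it was 36.9-fold lower, with the CTRL reads taken as counted. This unigene had a ratio interval of 0 to 0.0338, and the upper limit allows a smaller difference than the floor does. The fitted log2 ratio of Bju_CS52_R_7229, -4.81 and the lowest of all members, is set by the pseudocount and is no bound. Bju_CS52_R_14818, the highest CAP unigene in CTRL, had 22.9 RPKM there and 6.17 RPKM in SS, with a ratio of 0.270 (interval 0.242 to 0.30).

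Bju_CS52_R_12124 was the highest CAP unigene in SS. It had 483 reads (7.97 RPKM) in CTRL and 901 reads (15.7 RPKM) in SS. Its ratio was 1.97 (1.76 to 2.21), and the log2 ratio of 0.97 lies just under 2-fold and just past it after rescaling by size factors, centring or removal of a running trend. The study matches this unigene to a basic PR-1-like gene of Arabidopsis, known there for expression in roots and flowers and for induction by ethylene and methyl jasmonate. Bju_CS52_R_14051 had 13.9 and 11.4 RPKM in CTRL and SS, and Bju_CS52_R_15275 had 1.92 and 2.29 RPKM. The interval of the first ratio was below 1 (0.742 to 0.90), and that of the second held 1 (0.950 to 1.5). The order of the CAP unigenes by level thus differed between the libraries, with Bju_CS52_R_14818 first in CTRL and Bju_CS52_R_12124 first in SS. The median log2 ratio of the family was -0.29, and it is the same with Bju_CS52_R_7229 at the upper limit of its interval.

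The beta-1,3-glucanases, the PR-2 family, were the only member family with a median log2 ratio above 0 with own lengths. Of 7 unigenes, 6 had a log2 ratio above 0, a share that is 42.6% over all unigenes. An interval above 1 was found for 4 (57.1%, against 20.7% of all unigenes). None reached 2-fold in either direction, and the median log2 ratio was 0.55. Only 2 of the 7 reached 5 RPKM, and they went opposite ways, with log2 ratios of 0.81 (Bju_CS52_R_20956) and -0.34 (Bju_CS52_R_25148). Beta-1,3-glucanase 2 is the PR-2 gene of Arabidopsis that is widely used as a marker of salicylic acid responses. Its 4 unigenes had log2 ratios between 0.53 and 0.70, a narrow range, at low levels. They share the B. rapa matches Bra014635 and Bra015873, so they may stand for fewer than 4 genes. Bju_CS52_R_15115 had 177 reads (2.35 RPKM) in CTRL and 277 reads (3.88 RPKM) in SS, for a ratio of 1.65 (1.36 to 2.01). Bju_CS52_R_10726 had 134 and 201 reads in CTRL and SS, for a ratio of 1.58 (1.27 to 1.99). Bju_CS52_R_18615 had 93 and 131 reads, for a ratio of 1.49 (1.13 to 1.96). On the short Bju_CS52_R_1321, 20 and 29 reads gave a ratio of 1.53 with an interval that holds 1 (0.837 to 2.86), and its log2 ratio is -0.66 with the SS values as deposited.

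Beta-1,3-glucanase 3 was more abundant. Bju_CS52_R_20956 had 2415 reads (21.1 RPKM) in CTRL and 4005 reads (37.0 RPKM) in SS. Its ratio of 1.75 (1.67 to 1.84) was the largest of the family. The other beta-1,3-glucanase 3 unigene, Bju_CS52_R_21403, matches a different B. rapa gene and had 4.66 and 4.73 RPKM, for a ratio of 1.02 (0.90 to 1.15). Bju_CS52_R_25148, annotated as a putative beta-1,3-glucanase, was the highest of the family in both libraries and the only one with a ratio below 1. It had 49.1 RPKM in CTRL and 38.8 RPKM in SS, for a ratio of 0.790 (0.763 to 0.818), and its log2 ratio turns from -0.34 to 0.61 with the SS values as deposited. The summed level of the family was 81.3 RPKM in CTRL and 90.7 RPKM in SS. Under the name of family 17 glycosyl hydrolases, the enzyme family that beta-1,3-glucanases belong to, 24 further unigenes reached 1 RPKM. All of these stayed within 2-fold, as did 40602 of all 43250 unigenes. A log2 ratio below 0 was found for 18 of the 24, as for 24843 of all 43250. Their median was -0.07, against -0.06 over all unigenes.

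**Figure D2:**
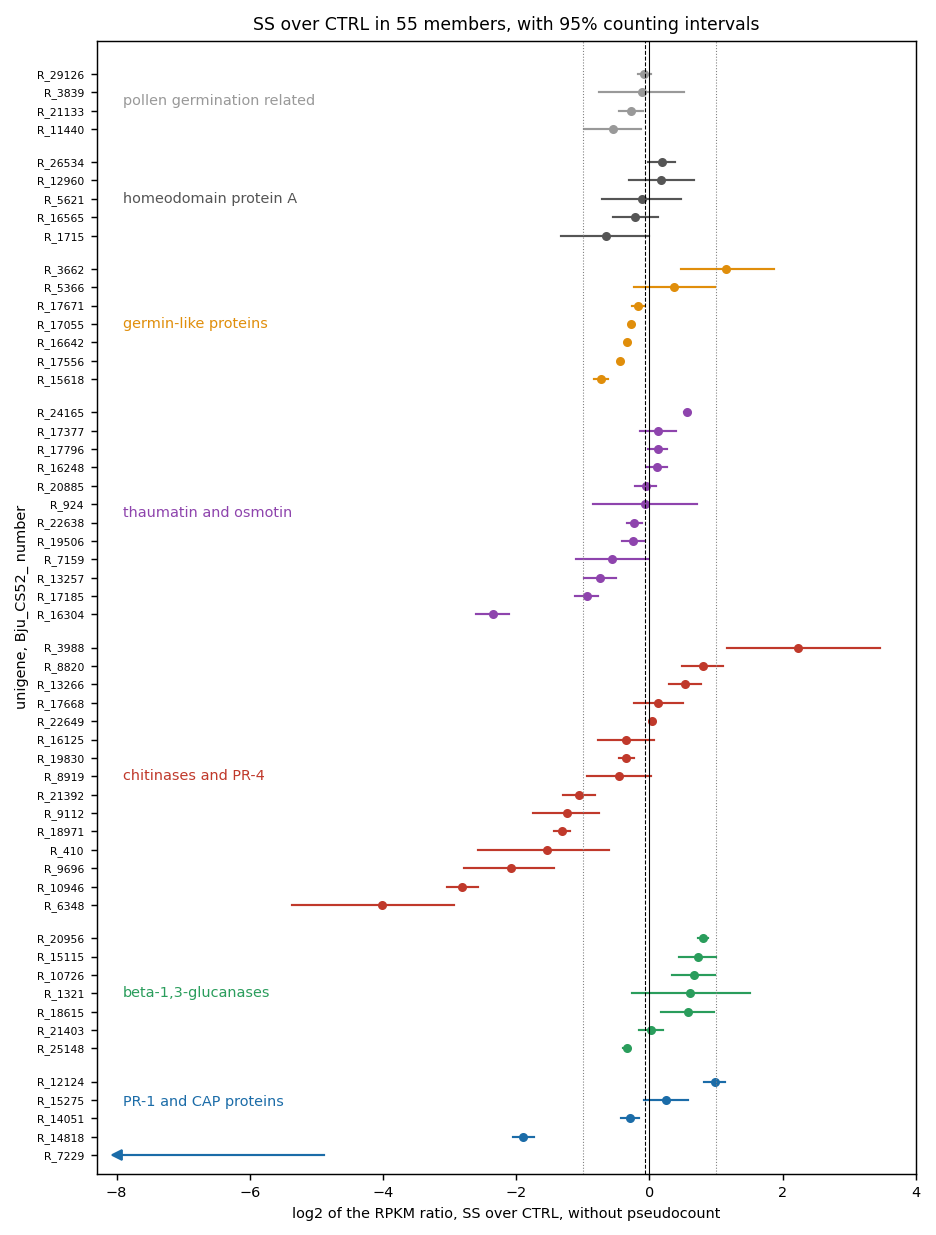
SS over CTRL for the 55 members with at least 1 RPKM in either library, as log2 of the RPKM ratio without pseudocount; bars are 95% counting intervals, dotted lines mark 2-fold, the dashed line the median of all unigenes at -0.06. Beta-1,3-glucanases lie mostly to the right of 0, 7 chitinase or PR-4 unigenes lie past 2-fold on the left, and the arrow marks the CAP unigene with 0 reads in SS.

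Chitinases and PR-4 held most of the members past 2-fold. Of 15 unigenes with at least 1 RPKM, 7 were at least 2-fold lower and 1 was at least 2-fold higher. These are 46.7% and 6.67%, against 4.21% and 1.91% of all unigenes. The median log2 ratio was -0.43. Intervals lay below 1 for 8 of them (53.3%, against 31.8% of all unigenes) and above 1 for 4 (26.7%, against 20.7%). PR-4 is a small chitin-binding protein related to hevein that responds to ethylene and jasmonate in Arabidopsis. The PR-4 unigene Bju_CS52_R_10946 had 1315 reads (23.6 RPKM) in CTRL and 178 reads (3.38 RPKM) in SS. Its ratio was 0.143 (0.122 to 0.167), and its level, next only to that of Bju_CS52_R_22649 among the chitinases in CTRL, was below those of 5 others in SS. The other PR-4 unigene, Bju_CS52_R_2587, had only 20 and 27 reads and stayed under 1 RPKM in both libraries.

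Basic chitinase, the class I enzyme that is also named PR-3 and responds to ethylene and jasmonate in Arabidopsis, was lower too. Its unigene Bju_CS52_R_21392 had 439 reads (3.72 RPKM) in CTRL and 200 reads (1.79 RPKM) in SS, for a ratio of 0.481 (0.405 to 0.570). The interval holds 0.5, and the unigene is no longer past 2-fold after rescaling by size factors, centring or removal of a running trend.

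The 9 unigenes named chitinase family protein ranged from a log2 ratio of -1.88 to 1.87, with a median of 0.04. Bju_CS52_R_22649 had by far the most reads. It had 17788 reads (139 RPKM) in CTRL and 17272 reads (142 RPKM) in SS, for a ratio of 1.03 (1.004 to 1.05). The study matches it to the chitinase-like protein AtCTL1, which in Arabidopsis is needed for cell wall formation and for tolerance of salt, heat and drought. Its level thus differed little between the libraries, in contrast to the lower chitinases.

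Bju_CS52_R_18971 was the second highest chitinase family unigene. It had 1853 reads (18.6 RPKM) in CTRL and 707 reads (7.49 RPKM) in SS, for a ratio of 0.403 (0.369 to 0.440). The B. rapa identifiers matched by Bju_CS52_R_16125 and Bju_CS52_R_17668 are close in number to the one matched by it. These 2 unigenes had low levels of 1.44 and 1.36 RPKM in CTRL, and ratios of 0.785 (0.588 to 1.05) and 1.10 (0.852 to 1.42), so the lower level of Bju_CS52_R_18971 was not seen in them beyond counting error.

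Other chitinase family unigenes were higher in SS. Bju_CS52_R_8820 had 145 reads in CTRL and 239 in SS, for a ratio of 1.74 (1.41 to 2.16), and Bju_CS52_R_13266, with the same B. rapa match, had 254 and 349 reads, for a ratio of 1.45 (1.23 to 1.71). Bju_CS52_R_3988 was the member with the largest ratio. It had 9 reads (0.255 RPKM) in CTRL and 40 reads (1.2 RPKM) in SS, and the ratio of 4.69 has a wide interval (2.24 to 11.0). The count behind it is small, and the unigene is within 2-fold with a pseudocount of 1 RPKM. The unigene named putative chitinase, Bju_CS52_R_19830, had 14.4 and 11.4 RPKM, for a ratio of 0.787 (0.728 to 0.850).

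All 3 unigenes of glycosyl hydrolases with a chitinase insertion domain were at least 2-fold lower, against 4.21% of all unigenes and 6.82% of those under 600 bp. This domain is typical of family 18 chitinases, to which the PR-8 and PR-11 proteins belong. Bju_CS52_R_6348 had 120 reads (2.94 RPKM) in CTRL and 7 reads (0.181 RPKM) in SS, for a ratio of 0.0616 (0.0243 to 0.131). Bju_CS52_R_410, with the same B. rapa match, had 40 and 13 reads, for a ratio of 0.343 (0.169 to 0.655). Bju_CS52_R_9112 had 125 and 50 reads, for a ratio of 0.422 (0.298 to 0.591). The whole interval was beyond 2-fold only for the first of them, and with a pseudocount of 1 RPKM the other two are within 2-fold, at log2 ratios of -0.69 and -0.77. Their summed level was 6.87 RPKM in CTRL and 1.73 RPKM in SS. These unigenes are short, between 307 and 516 bp.

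Among thaumatin-like proteins and osmotin, the PR-5 family, 1 of 12 unigenes with at least 1 RPKM was at least 2-fold lower and 0 were at least 2-fold higher. The lower share is 8.33%, against 4.21% of all unigenes. The median log2 ratio was -0.14, and it turns to 0.13 with the SS values as deposited and to 0.0026 after rescaling by size factors. Bju_CS52_R_16304 was the lower one, with 863 reads (10.5 RPKM) in CTRL and 160 reads (2.05 RPKM) in SS. Its ratio was 0.196 (0.164 to 0.232), and no other unigene shares its B. rapa match. Bju_CS52_R_17185 was close to 2-fold lower, with 9.25 RPKM in CTRL and 4.81 RPKM in SS, for a ratio of 0.520 (0.461 to 0.587). Bju_CS52_R_13257 had 6.34 and 3.80 RPKM, for a ratio of 0.599 (0.509 to 0.704).

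The highest unigene of the family was higher in SS. Bju_CS52_R_24165 had 5637 reads (39.2 RPKM) in CTRL and 7889 reads (58.0 RPKM) in SS, for a ratio of 1.48 (1.43 to 1.53). It was the only thaumatin-like unigene of at least 1 RPKM with an interval above 1. The summed level of the family was 110.5 RPKM in CTRL and 112 RPKM in SS. Osmotin 34, named for the osmotin that accumulates in salt-adapted tobacco cells, had 8.64 RPKM in CTRL and 9.33 RPKM in SS (Bju_CS52_R_16248). Its reads were 709 and 725, and the interval of its ratio of 1.08 holds 1 (0.973 to 1.2). Thaumatin-like protein 3 (Bju_CS52_R_3848) had 14 reads in CTRL and 32 in SS, for a ratio of 2.41 (1.25 to 4.90), but stayed under 1 RPKM in both libraries, as did Bju_CS52_R_804 with 13 and 26 reads.

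The most abundant members were 3 of the 7 germin-like unigenes. Germin-like protein 1 (Bju_CS52_R_17556) had 234680 reads (2595 RPKM) in CTRL and 163373 reads (1908 RPKM) in SS. It ranked 24th among the unigenes by RPKM in CTRL and 36th in SS, and its ratio was 0.735 (0.731 to 0.740). Germin 3 (Bju_CS52_R_17055), whose Arabidopsis match is known for a daily rhythm in leaves, had 1164 RPKM in CTRL and 965 RPKM in SS, for a ratio of 0.828 (0.821 to 0.836). The other germin-like protein 1 unigene, Bju_CS52_R_16642, had 269.5 and 214 RPKM, for a ratio of 0.794 (0.779 to 0.810). These 3 unigenes held 0.461% of the reads on unigenes in CTRL and 0.352% in SS, out of 0.536% and 0.422% for the 55 members together. They were modestly lower, and their narrow intervals reflect read number and not agreement between seedling pools.

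Germin-like protein 5 was represented by a pair of unigenes with different B. rapa matches. Bju_CS52_R_15618 had 24.7 and 14.9 RPKM, for a ratio of 0.603 (0.559 to 0.649), and Bju_CS52_R_17671 had 22.8 and 20.3 RPKM, for a ratio of 0.891 (0.835 to 0.950). The intervals of these ratios do not overlap. Germin-like protein 8 (Bju_CS52_R_3662) was the only member of this family past 2-fold. It had 27 reads (0.780 RPKM) in CTRL and 57 reads (1.74 RPKM) in SS, for a ratio of 2.23 (1.39 to 3.67), and is within 2-fold with a pseudocount of 1 RPKM. With the SS values as deposited its log2 ratio is -0.05. Germin-like protein 7 (Bju_CS52_R_5366) had 44 and 54 reads, with an interval that holds 1 (0.855 to 1.98). Over the 7 unigenes the median log2 ratio was -0.27. Of the further cupins, 17 unigenes named RmlC-like reached 1 RPKM, with a median log2 ratio of 0.15. At least 2-fold lower were 2 of them (11.8%, against 4.21% of all unigenes), and 0 were at least 2-fold higher (against 1.91%). The 48 leaf marker unigenes had a median log2 ratio of -0.06 and held 10.8% of the reads on unigenes in CTRL and 9.41% in SS. Of these, 3 light harvesting unigenes were at least 2-fold lower (6.25%, against 4.21% of all unigenes). The part of leaf share in the germin-like values was not tested.

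The members of other kinds differed little. Over 5 unigenes of the pathogenesis related homeodomain protein with at least 1 RPKM, log2 ratios ran from -0.61 to 0.18. All 5 stayed within 2-fold, as did 40602 of all 43250 unigenes. The highest, Bju_CS52_R_26534, had 2.31 RPKM in CTRL and 2.62 RPKM in SS. In Bju_CS52_R_16565 the levels were 1.95 and 1.68 RPKM, and in Bju_CS52_R_1715 1.77 and 1.12 RPKM. The 4 unigenes related to pollen germination had log2 ratios from -0.52 to -0.07. Bju_CS52_R_29126 had 7.52 and 7.15 RPKM, Bju_CS52_R_21133 had 5.03 and 4.14 RPKM, and Bju_CS52_R_11440 had 2.12 and 1.45 RPKM in CTRL and SS. With the SS values as deposited, the log2 ratios of Bju_CS52_R_29126 and Bju_CS52_R_21133 turn to 1.51 and 0.24. Without these 10 rows, 10 of 46 members were at least 2-fold lower (21.7%, against 4.21% of all unigenes). At least 2-fold higher were 2 (4.35%, against 1.91%), and the median log2 ratio was -0.23.

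B. juncea is an allotetraploid with a genome from B. rapa and one from B. nigra, so a B. rapa gene can have several matching unigenes. The 59 members matched 44 different B. rapa genes, and 10 of these were matched by more than 1 member, 25 members in all. In 8 of the 10, all copies with at least 1 RPKM lay on the same side of 0. The same share was not worked out over all unigenes, so this count has no reference and cannot be read as agreement between copies. The copies of beta-1,3-glucanase 2 were closest, with log2 ratios of 0.64 and 0.70 for Bra014635 and of 0.53 and 0.55 for Bra015873. The germin-like protein 1 copies had -0.44 and -0.33 although their CTRL levels differed 9.63-fold. Copies were farthest apart for the chitinase insertion domain match Bra020951 (-3.44 and -1.37) and for the chitinase match Bra036316. Of the latter pair, Bju_CS52_R_9696 had 107 reads in CTRL and 24 in SS, for a ratio of 0.237 (0.145 to 0.372), and Bju_CS52_R_8919 had 91 and 63 reads, for a ratio of 0.731 (0.522 to 1.02). Unigenes with the same match may be homeologs, alleles or parts of 1 transcript, and reads of near-identical copies may be split between them.

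**Figure D3:**
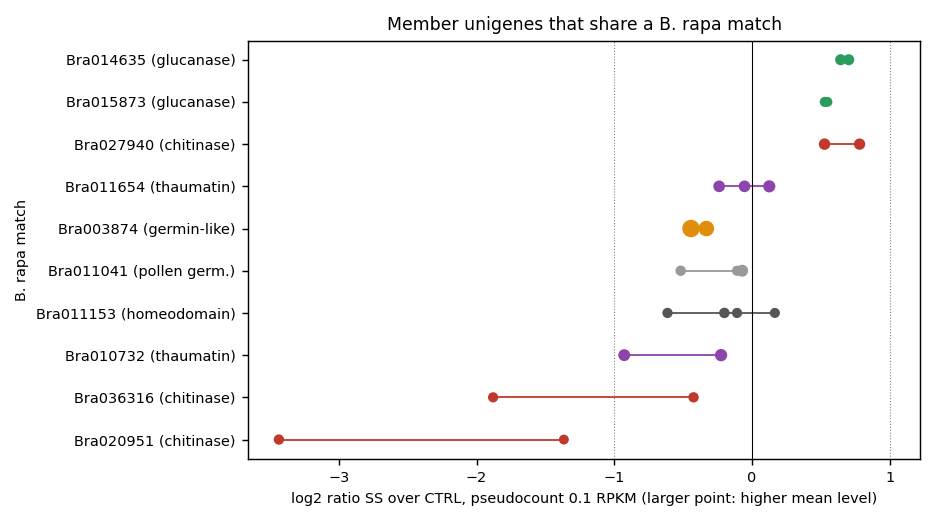
Log2 ratio of SS over CTRL (pseudocount 0.1 RPKM) of member unigenes with at least 1 RPKM, grouped by the 10 B. rapa matches that more than 1 member shares; each point is a unigene, larger points have a higher mean level, dotted lines mark 2-fold. Glucanase copies lie together between 0.53 and 0.70, while chitinase copies of Bra020951 are 2.07 apart.

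Short unigenes were more often at least 2-fold lower, among members as among all unigenes. Of 18 members under 600 bp, 6 were at least 2-fold lower (33.3%, against 6.82% of all unigenes under 600 bp), and of 37 members of 600 bp or more, 4 were (10.8%, against 2.73%). The split at 600 bp was chosen after the values were seen. The 4 longer ones are the CAP unigene Bju_CS52_R_14818, the chitinases Bju_CS52_R_18971 and Bju_CS52_R_21392 and the thaumatin-like Bju_CS52_R_16304. Spearman's rho of the log2 ratio over the 55 members, which share both libraries and are no replicates, was 0.07 with length and -0.13 with mean RPKM. The levels in CTRL and SS had a rho of 0.85 over the members and 0.93 over all unigenes.

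Lists of related defence genes, taken by annotation words outside those of the members, are given beside the shares over all unigenes, of which 1.91% lay past 2-fold on the higher side and 4.21% on the lower side. MLP-like proteins are small proteins that share the Bet v I fold with the PR-10 family. Of 9 MLP-like unigenes, 0 were past 2-fold, and their median log2 ratio was 0.10. Ratio intervals lay above 1 for 5 of them (55.6%, against 20.7% of all unigenes) and below 1 for 3 (33.3%, against 31.8%). The highest, MLP-like protein 28 (Bju_CS52_R_18040), had 16372 reads (175 RPKM) in CTRL and 26260 reads (297 RPKM) in SS, for a ratio of 1.69 (1.66 to 1.73). NPR1, a receptor of salicylic acid, and the TGA factors it binds switch on PR-1 and PR-2 in Arabidopsis. The words for NPR1, TGA factors, NIM1-interacting proteins and SAG101 took 26 unigenes, 3 of them named suppressor of npr1-1 constitutive 4. All 26 stayed within 2-fold, as did 40602 of all 43250 unigenes, with log2 ratios from -0.71 to 0.51 and a median of 0.12. The highest unigene named NPR1, Bju_CS52_R_19202, had 642 reads in CTRL and 829 in SS, for a ratio of 1.36 (1.23 to 1.51). The words defensin, hevein and glycosyl hydrolase family 18 or 19 took 0 unigenes.

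**Figure D4:**
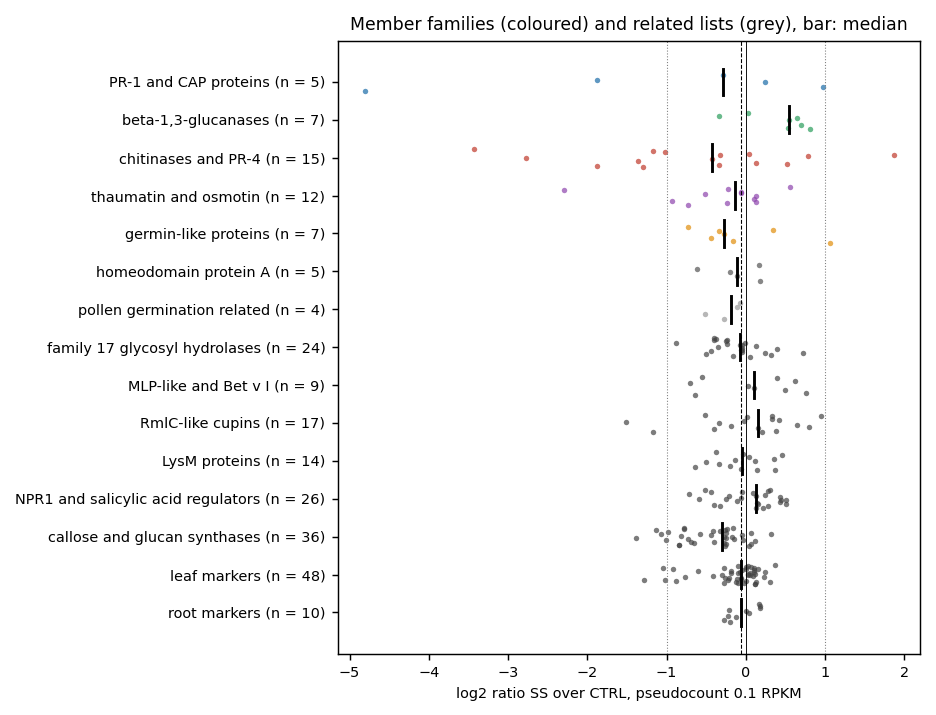
Log2 ratio of SS over CTRL (pseudocount 0.1 RPKM) of unigenes that reach 1 RPKM in CTRL or SS, in the member families (coloured) and in related lists (grey); each point is a unigene, vertical bars are medians, dotted lines mark 2-fold and the dashed line the median of all unigenes. Chitinases and PR-4 spread from -3.44 to 1.87, and all 26 unigenes of the NPR1 list lie within 2-fold, as do 40602 of all 43250 unigenes.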

How the data were processed

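RNA was sequenced from 1 pool of seedlings per condition. The authors assembled reads with Trinity after aligning them to B. rapa with Tophat, clustered transcripts with CD-HIT-EST and mapped high-quality reads to the unigenes with BOWTIE2. DESeq is named for normalization and for the authors' own calls of differential expression, which were not used here. Aligner versions were not given in the sources used here. The deposited CTRL column is RPKM as calculated by the authors. The SS column, also deposited as RPKM, is a signal proportional to reads: 100% of 47505 values are whole multiples of 1 step (tolerance 0.01 read), so whole reads could be recovered. The design assumed RPKM, so SS was converted with own lengths.

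Lengths were taken as the whole numbers that give whole CTRL reads and do not fall with the unigene number; 47352 of 47392 unigenes with a CTRL value above 0 had a single solution. The recovery and the 2-fold counts were tried on simulated data. The simulation used the recovered lengths themselves, planted changes larger than 2-fold and counting noise only. It therefore cannot check the lengths independently, changes near 2-fold or spread between seedling pools. With 1 library per condition, the recovered reads give no spread between replicates, so no count model was run on them and they carry no calls of one. Intervals are Clopper-Pearson (95%, SciPy 1.17.1), cover counting error only and take each read as independent. PCR duplicates and mates of a read pair are not independent, so the intervals can be too narrow even for counting error. Where a library had 0 reads, 3 reads were used as its floor.

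Members and lists were chosen with earlier results of these data known. Each member past 2-fold and the 3 highest of each family were named by rule, and others were given to account for the members. Alternatives were other pseudocounts, minimum levels and scalings, the SS values as deposited, a running trend over 500 unigenes, and narrower annotation words. No unigene sequences were used here.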

Additional observations from a re-analysis of the deposited data

How the results depend on the processing

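No paired analysis was possible because each condition has 1 library, and for the same reason no replicate could be left out. The count of 10 lower members ranged from 7 to 15 over the alternatives, except with a minimum of 5 RPKM, where it was 4. The median of the members stayed below 0 in every alternative run, between -0.27 and -0.11. Among the 12 members past 2-fold, no log2 ratio changed sign where the unigene still reached the minimum level. Bju_CS52_R_3662 fell under that level with the SS values as deposited, and its log2 ratio there went from 1.06 to -0.05. The number of reads limits the lowest members most, such as Bju_CS52_R_3988 with 9 reads in CTRL.

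With the SS values as deposited, which divide by 1 common length and so shift unigenes by length, 4 members were at least 2-fold higher. Of these, 0 were among the 2 higher ones with own lengths, and of the 15 lower ones 8 were among the 10. The CAP median was then -0.49, and 1 glucanase, 0 chitinases, 1 thaumatin-like, 0 germin-like, 1 homeodomain and 1 pollen germination unigene were at least 2-fold higher. The 15 lower ones were 6 chitinase or PR-4, 2 CAP, 4 thaumatin-like, 2 homeodomain and 1 pollen germination unigene, and the thaumatin-like median became 0.13. Over all unigenes, 7033 were then higher and 9144 lower, instead of 828 and 1820.

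A minimum of 5 RPKM tested fewer unigenes (27 members) and left 0 members higher and 4 lower, of which 1 was a CAP and 2 were chitinase or PR-4 unigenes. It left 0 chitinases and 0 germin-like proteins higher, with medians of -0.15 for chitinases and -0.33 for germin-like proteins. Of the beta-1,3-glucanases 2 unigenes remained, with a median of 0.23. Without a minimum, 1 thaumatin-like unigene (Bju_CS52_R_3848) was higher. A pseudocount of 1 RPKM, which shrinks low unigenes, left 0 members higher, hence 0 chitinases and 0 germin-like proteins, and 4 chitinase or PR-4 unigenes lower. Over all unigenes it left 403 higher and 644 lower, and the minimum of 5 RPKM left 225 and 380.

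Scaling by size factors raised log2 ratios by 0.07 and gave 4 higher members, among them 1 CAP (Bju_CS52_R_12124) and 1 thaumatin-like unigene, with a germin-like median of -0.21 and a thaumatin-like median of 0.0026. Centring on the median and removal of the running trend each made 1 CAP unigene higher, with germin-like medians of -0.21 and -0.23. Under these 3 scalings 9 members were lower.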

Other observations

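Glucan synthase-like proteins and callose synthases build beta-1,3-glucan, the polymer that beta-1,3-glucanases cut. Of 36 unigenes with at least 1 RPKM, 31 had a log2 ratio below 0, as had 24843 of all 43250 unigenes. Ratio intervals lay below 1 for 25 of them (69.4%, against 31.8% of all unigenes) and above 1 for 1 (2.78%, against 20.7%). Their median log2 ratio was -0.30, and 4 were at least 2-fold lower (11.1%, against 4.21%), all of them weakly covered. Glucan synthase-like 1 (Bju_CS52_R_12164) had 112 reads in CTRL and 37 in SS, for a ratio of 0.349 (0.234 to 0.510), and a glucan synthase-like 7 unigene (Bju_CS52_R_10094) had 128 and 58 reads, for a ratio of 0.479 (0.345 to 0.658). The longest and best covered ones differed less, as in glucan synthase-like 4 (Bju_CS52_R_30571), with 14.0 RPKM in CTRL and 11.7 RPKM in SS.

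LysM proteins include receptors and co-receptors of chitin fragments. All 14 LysM unigenes with at least 1 RPKM stayed within 2-fold, as did 40602 of all 43250, with a median log2 ratio of -0.05. The highest, Bju_CS52_R_19259, had 1082 reads in CTRL and 1327 in SS, for a ratio of 1.30 (1.19 to 1.41).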
